A study of Mus musculus with 11 samples.

Results

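The genes described here are 46 genes of the cell division cycle, 22 that act from G1 into S phase and 24 that act in G2 and mitosis, out of 55414 genes in the deposited count table. They were taken by symbol, each matched 1 row, and all 46 passed the filter on low counts that left 17038 genes for testing. RNA was sequenced from 11 male mice of the genotype Clec4f-DTR, from samples labelled as whole liver tissue. The extraction text given with them describes sorted CD45-positive cells for single-cell sequencing, which goes against that label. Hepatocyte markers summed to 63264 to 115079 CPM (counts per library scaled to a common size) in these samples. In these mice the receptor for diphtheria toxin (DT) is driven by the promoter of Clec4f, a gene of the resident liver macrophages called Kupffer cells, so that the toxin removes those cells. Mice were 8 weeks old when the diets began and were kept on them for 16 weeks. The 3 chow livers came from mice on normal chow, whose labels name no injections. The 4 saline livers came from mice on a western diet with alcohol given repeated saline injections, and the 4 DT livers from mice on that diet given repeated DT. All 3 groups carry the same genotype, and only the last received the toxin. The study's design sets chow livers beside livers on the alcohol diet with and without Kupffer cell depletion. The labels number the livers within a group but give no other origin, so the p-values measure the spread between these samples.

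A cell that leaves rest builds D-type cyclins, which with their kinases release E2F factors from the retinoblastoma protein, and E2F then switches on the genes for loading replication origins and making DNA. Genes of G2 and mitosis come on later, through the DREAM and B-MYB/FOXM1 complexes, which read CHR elements near the start sites. CCAAT boxes are also common in the promoters of these genes. Adult liver is largely at rest, and its hepatocytes can enter S phase after injury or loss of tissue. Many hepatocytes replicate DNA without dividing, so S-phase and mitotic transcripts in liver need not move together. E2F8 is known in liver for holding back mitotic genes during this process.

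The letters below show what these elements look like in 4 G2/M and 2 G1/S genes whose levels are described further on, as the 150 bases that end at the base before the start site in the mouse RefSeq promoter table (GRCm38.p6, an earlier build than that of the counts). Capitals mark an E2F site (TTTCCCGC, TTTGGCGC, TTTCGCGC or TTTGCCGC), a CHR (TTTGAA or TTCGAA) or a CCAAT box, each searched on both strands.
Cdk1 (ENSMUSG00000019942), chr10:69352913-69353062, minus strand: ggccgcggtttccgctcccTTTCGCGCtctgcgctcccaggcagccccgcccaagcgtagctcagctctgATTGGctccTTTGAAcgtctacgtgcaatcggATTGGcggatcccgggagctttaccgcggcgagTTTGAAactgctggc
Ccnb2 (ENSMUSG00000032218), chr9:70421555-70421704, minus strand: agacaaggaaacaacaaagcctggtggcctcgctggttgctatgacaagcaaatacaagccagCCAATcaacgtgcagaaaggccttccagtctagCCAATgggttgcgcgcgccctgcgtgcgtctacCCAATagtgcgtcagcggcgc
Cdc20 (ENSMUSG00000006398), chr4:118437344-118437493, minus strand: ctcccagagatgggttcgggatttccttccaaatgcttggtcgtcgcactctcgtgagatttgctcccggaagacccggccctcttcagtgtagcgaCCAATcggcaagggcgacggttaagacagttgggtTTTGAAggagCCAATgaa
Ube2c (ENSMUSG00000001403), chr2:164769779-164769928, plus strand: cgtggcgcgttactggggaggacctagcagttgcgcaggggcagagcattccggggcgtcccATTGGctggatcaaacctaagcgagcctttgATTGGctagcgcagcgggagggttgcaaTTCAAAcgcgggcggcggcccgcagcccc
E2f8 (ENSMUSG00000046179), chr7:48881597-48881746, minus strand: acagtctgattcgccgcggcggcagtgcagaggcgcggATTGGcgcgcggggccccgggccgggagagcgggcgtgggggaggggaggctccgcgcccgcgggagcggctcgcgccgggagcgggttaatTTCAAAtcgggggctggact
Mcm6 (ENSMUSG00000026355), chr1:128359706-128359855, minus strand: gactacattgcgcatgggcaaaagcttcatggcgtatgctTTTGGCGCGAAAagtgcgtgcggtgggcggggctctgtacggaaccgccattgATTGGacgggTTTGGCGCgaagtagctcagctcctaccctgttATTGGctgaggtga

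In the whole table window, 250 bases before to 50 after the start, a CHR was found in 13 of the 18 G2/M members listed there (72.2%), in 4 of the 17 G1/S members (23.5%) and in 19.4% of all 27025 genes. An E2F site was found in 1 of 18 G2/M members (5.56%), which is Cdk1, in 6 of 17 G1/S members (35.3%) and in 2.32% of all genes. A CCAAT box was in 83.3% of the G2/M members, 64.7% of the G1/S members and 37.9% of all genes. In Mcm6 the first block of capitals is an overlapping pair of E2F sites on opposite strands. In Ccnb2 the CHR matches lie outside the stretch shown, at -167 and 5 from the start, and Cdk1 holds an E2F site besides its CHR and CCAAT boxes, so the 6 stretches alone do not sort the genes by phase. E2f8, grouped with the G1/S genes, holds a CHR and a CCAAT box and no E2F site by these letters. The table held 35 of the 46 members.

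Whole-library facts bear on every value. Totals ran from 43995217 to 58089531 counts per liver, and 3 counts, taken as the limit of detection for counting error only, correspond to 0.0398 to 0.0773 CPM (counts scaled to a common library size). Levels are CPM scaled by TMM factors, and log2 fold changes come from edgeR's quasi-likelihood test with Benjamini-Hochberg adjusted p-values over all 17038 genes. A gene is called, and said to have risen or fallen, where the adjusted p was below 0.05. Clec4f was at 37.1 to 50.3 CPM in the 7 livers without toxin whereas the DT livers, in the order of their numbers, had 9.06, 15.2, 7.51 and 6.18 CPM, and all 6 Kupffer cell markers fell between saline and DT livers. DT liver 2 stood apart from the other 3 DT livers for the genes below, so results are also given without it.

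Between saline and DT livers most G2/M genes rose, in 3 of the 4 DT livers, while most G1/S genes were not called; the difference between the phases was not itself tested. Of the 24 G2/M members, 16 rose and 8 were left uncalled; no member fell, and all 24 log2 fold changes were positive, with a median of 2.05. Of the 22 G1/S members, 2 rose (Ccnd1 and Rrm2), 2 fell (E2f8 and Tk1) and 18 were not called, with a median of 0.12. Over all genes tested 14.3% rose and 7.62% fell, with a median of 0.02. Against that background the share that rose was 66.7% for G2/M and 9.09% for G1/S members. DESeq2 called 19 G2/M and 5 G1/S members, and limma-voom 10 and 4. Of all 17038 genes they called 4911 and 3109.

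**Figure D1:**
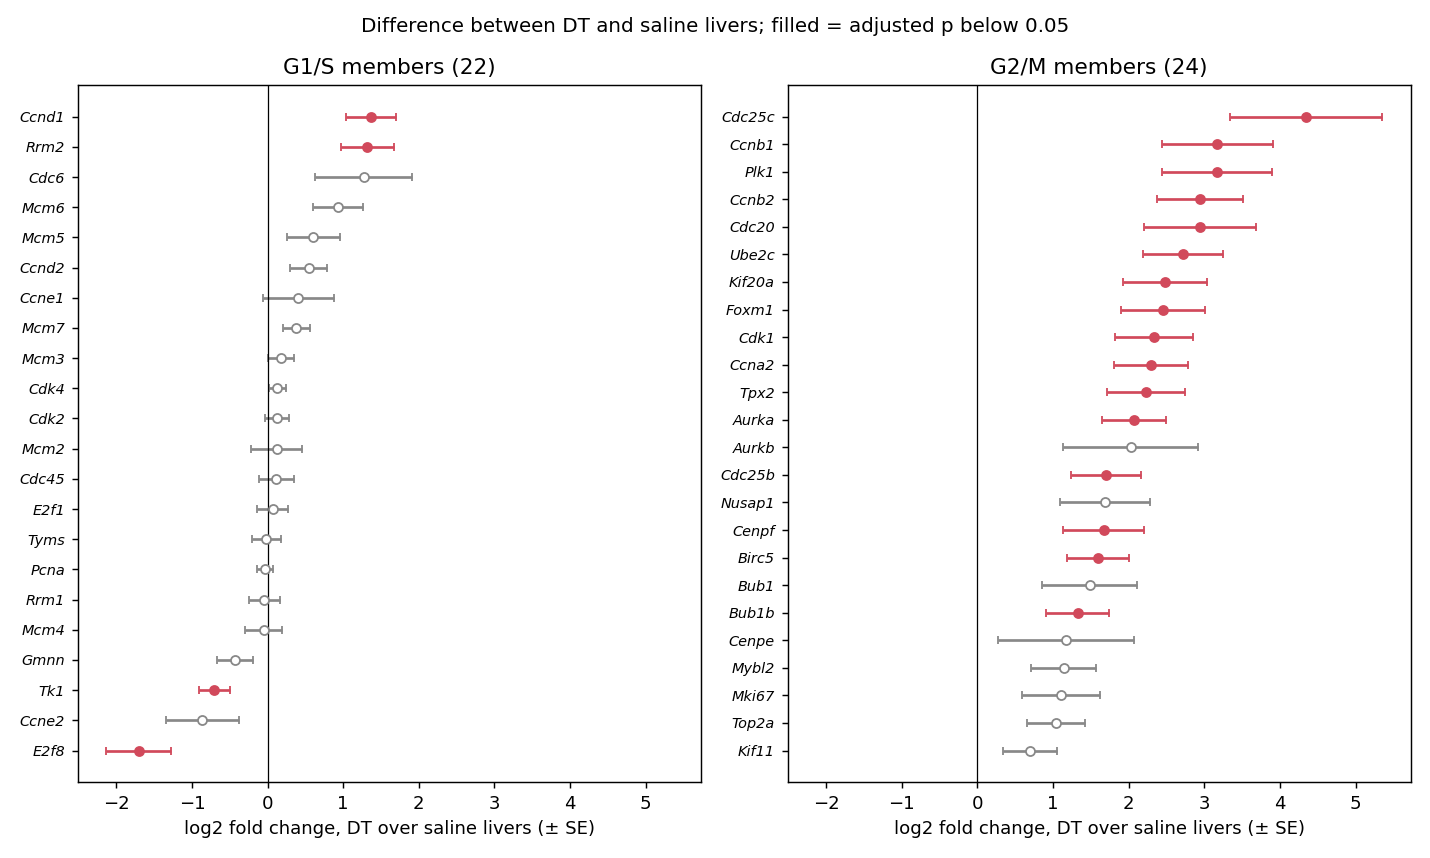
Log2 fold change of DT over saline livers for each G1/S member (left) and G2/M member (right), with its standard error as the bar. Filled red points have an adjusted p below 0.05 (4 of 22 and 16 of 24), and all 24 G2/M points lie right of 0.

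The count depended on single livers. Without DT liver 2, 22 G2/M members rose, and 6 G1/S members rose and 2 fell. In that refit 6824 of all genes were called, against 3734 with all livers. Over the 11 refits that each left out 1 liver, between 11 and 22 G2/M members and between 1 and 8 G1/S members were called. Calls over all genes ran from 1786, without saline liver 2, to 6824. G1/S calls dropped to 1 without saline liver 2, saline liver 4 or DT liver 4, and to 2 without DT liver 3. The total of 20 members dropped to 12 without saline liver 2 and to 13 without saline liver 4 or DT liver 4. Of the 20 calls, 11 held in every refit in which the gene was tested, all of them G2/M members (Cdc25c was tested in 8 of the 11 refits). Other settings also ended calls: limma-voom those of Ccnb1, Cdc25b, Plk1, Bub1b, Birc5, Kif20a and Cenpf, the compared groups alone those of Tk1, Cdc25b, Bub1b and Cenpf, the replicate block those of Tk1, Cdc25b and Cenpf, and no filter that of Cdc20.

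Averaging log2 CPM over the members of a phase, with the mean of the chow livers set to 0, gave 1 score per liver and phase. The G2/M score was 2.96, 0.720, 2.77 and 2.70 in DT livers 1 to 4 and 0.820, 0.213, 0.883 and 0.344 in saline livers 1 to 4. DT livers 1, 3 and 4 were thus far above every saline liver, and DT liver 2 was inside the saline range. The G1/S score was 0.767, 0.126, 0.545 and 0.624 in the DT livers and 0.210, 0.270, 0.599 and 0.457 in the saline livers, so the groups overlapped. The G2/M score minus the G1/S score was 2.19, 0.594, 2.23 and 2.08 in the DT livers, and it lay between -0.113 and 0.610 in the saline livers. These scores average the genes tested above and carry no test of their own.

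**Figure D2:**
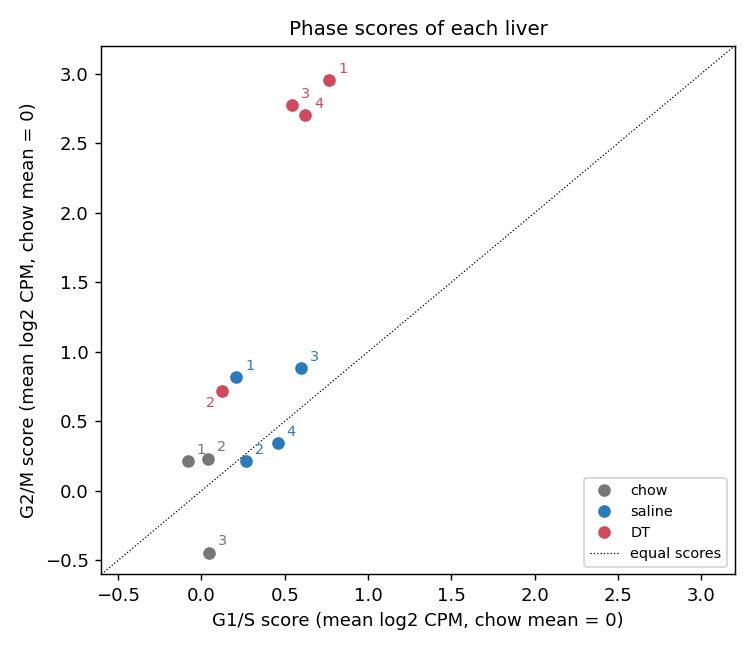
G2/M score against G1/S score for each liver (mean log2 CPM of the members, chow mean at 0); numbers are the liver within its group and the dotted line marks equal scores. DT livers 1, 3 and 4 lie at G2/M scores of 2.70 to 2.96. DT liver 2, at 0.720, is inside the saline range for G2/M. Its G1/S score, 0.126, is below that of every saline liver.

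Gene by gene, DT livers 3 and 4 each exceeded all 4 saline livers for 24 of 24 G2/M members and DT liver 1 for 21, while DT liver 2 did so for 5. For all genes tested these shares were 37.7%, 38.8%, 36.5% and 28.4%. Among G1/S members the counts were 14, 3, 7 and 8 of 22 for DT livers 1 to 4. DT liver 2 was the lowest of the DT livers for 33 of the 46 members. With no overlap, 4 G2/M members (Cdc25c, Mybl2, Aurka and Ube2c) and 1 G1/S member (Rrm2) were higher in all DT than in all saline livers, against 9.33% of all genes. For Cdc25c the lowest DT liver was barely above the highest saline liver, with both near the limit of detection. E2f8 alone was lower with no overlap, against 9.97% of all genes.

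Markers of other liver cells moved with these livers. The summed level of 7 cholangiocyte markers was 357.7, 28.6, 230.9 and 408.5 CPM in DT livers 1 to 4 and 20.3 to 46.3 CPM in saline livers, and 7 of 7 rose. Krt19 was at a mean of 0.311 CPM in saline livers and Cftr at 0.0584 CPM, near the limit of detection. The 7 stellate cell and myofibroblast markers summed to 393.6, 93.6, 308.2 and 395.8 CPM in DT livers and 58.2 to 122.6 CPM in saline livers, and 6 of 7 rose. Among monocyte and macrophage markers 2 of 6 rose and 1 fell, at summed levels of 76.2 to 138.8 CPM in DT livers and 114.9 to 144.3 CPM in saline livers. Those sums are mostly Csf1r and Adgre1; the mean log2 CPM of the same 6 genes, relative to chow, was 1.905, 0.801, 2.006 and 2.369 in DT livers 1 to 4 and 0.309 to 1.351 in saline livers, so DT livers 1, 3 and 4 were above all saline livers and DT liver 2 was not. T and NK cell markers summed to 4.74 to 10.5 CPM in DT livers and 3.32 to 6.42 CPM in saline livers, and 1 of 6 rose. Hepatocyte markers summed to 63264 to 85100 CPM in DT livers and 79639 to 95462 CPM in saline livers, and none of 7 was called. Of the erythroid markers tested 3 of 4 fell, of the endothelial markers 1 of 6 rose and 2 fell, and no tested B and plasma cell or neutrophil marker was called. The part of these markers in the cell cycle result was not tested. In bulk tissue, a change in the number of cells of a type and a change in RNA per cell cannot be told apart.

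**Figure D3:**
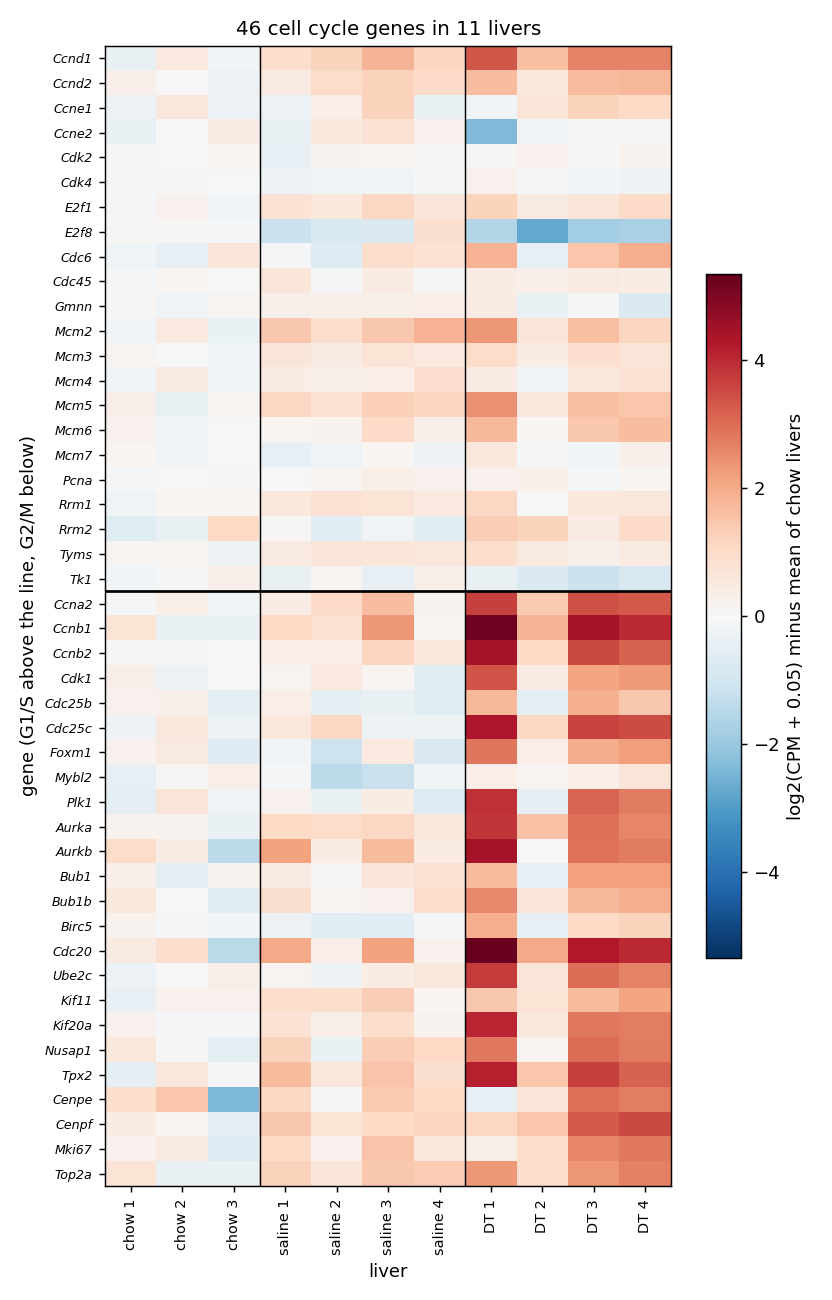
Log2(CPM + 0.05) of each of the 46 members in each of the 11 livers, as the difference from the mean of the chow livers (red higher, blue lower). The red block is in the G2/M rows of DT livers 1, 3 and 4. The E2f8 row is blue in all 4 DT livers, and Ccne2 is a deeper blue than E2f8 in DT liver 1.

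Mitotic cyclins and CDK1, the kinase pair that drives entry into mitosis, rose together with the CDC25 phosphatases that activate it: 6 of 6 rose. The levels of Cdk1, in the order of liver numbers, were 0.824, 0.512 and 0.646 CPM on chow, 0.734, 0.956, 0.732 and 0.426 CPM after saline, and 7.16, 0.874, 2.99 and 3.39 CPM after DT, so that 3 DT livers were above all others and DT liver 2 was not. Its log2 fold change over saline was 2.34 ± 0.52 (SE; adjusted p = 0.0119).

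Ccnb2, a B-type cyclin and CDK1 partner, was at 0.258, 0.287 and 0.277 CPM in chow, 0.367, 0.366, 0.658 and 0.426 CPM in saline, and 6.90, 0.624, 3.69 and 2.88 CPM in DT livers (2.95 ± 0.57, adjusted p = 0.00802). Ccnb1, the other B-type cyclin, was at 0.155, 0.0409 and 0.0461 CPM in chow, 0.204, 0.163, 0.549 and 0.0852 CPM in saline, and 4.42, 0.375, 2.5 and 1.88 CPM in DT livers (3.17 ± 0.73, adjusted p = 0.0134). For Ccnb1, chow livers 2 and 3 were below their limits of detection (0.0614 and 0.0692 CPM). Saline liver 4 was near its limit (0.0639 CPM). Ccna2, cyclin A2 of S and G2, was at 0.309, 0.430 and 0.277 CPM in chow, 0.448, 0.732, 1.17 and 0.383 CPM in saline, and 4.82, 0.957, 4.08 and 3.67 CPM in DT livers (2.30 ± 0.49, adjusted p = 0.0106). All 3 cyclins shared the order of Cdk1: highest in DT liver 1, with DT liver 2 between the lowest and the highest saline liver. Cdc25b rose by 1.70 ± 0.47 on the log2 scale (adjusted p = 0.0254) and was called in 5 of 11 refits. Cdc25c was at 1.19, 0.0832, 0.706 and 0.636 CPM in DT livers and 0 to 0.0814 CPM in saline livers, at or near the limit of detection. Cdc25c was called (adjusted p = 0.0138), but the size of its fold change depends on the prior count.

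FOXM1 and B-MYB are the transcription factors that switch on G2/M genes. Foxm1 was at 0.644, 0.778 and 0.323 CPM in chow, 0.489, 0.224, 0.805 and 0.298 CPM in saline, and 4.27, 0.707, 2.30 and 2.74 CPM in DT livers. It rose by 2.45 ± 0.55 on the log2 scale (adjusted p = 0.0126). Mybl2, which encodes B-MYB, was at 0.122 to 0.367 CPM in saline and 0.458 to 0.676 CPM in DT livers with no overlap, but was not called (1.14 ± 0.43, adjusted p = 0.0742). Its chow livers, at 0.283 to 0.531 CPM, overlapped the DT livers.

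Of the 6 mitotic kinases and checkpoint members, 4 rose. Plk1, a kinase of mitotic entry and spindle assembly, was at 0.258, 0.634 and 0.323 CPM in chow, 0.448, 0.285, 0.512 and 0.213 CPM in saline, and 6.42, 0.250, 3.67 and 2.89 CPM in DT livers (3.17 ± 0.73, adjusted p = 0.0134). DT liver 2 was below 3 of the 4 saline livers. Aurka, the kinase of centrosomes and spindle poles, was at 0.361, 0.368 and 0.231 CPM in chow, 0.713, 0.671, 0.732 and 0.511 CPM in saline, and 5.10, 1.04, 2.77 and 2.16 CPM in DT livers (2.07 ± 0.42, adjusted p = 0.00914). Aurka thus ordered all 3 groups with no overlap. Birc5 (survivin) rose by 1.6 ± 0.41 (adjusted p = 0.0198) and the checkpoint kinase Bub1b by 1.32 ± 0.41 (adjusted p = 0.0407), the latter in 3 of 11 refits. Aurkb (2.02 ± 0.89, adjusted p = 0.122) and Bub1 (1.48 ± 0.63, adjusted p = 0.110) were not called.

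Both members that serve the anaphase-promoting complex rose. Ube2c, its ubiquitin-conjugating enzyme, was at 0.309, 0.409 and 0.508 CPM in chow, 0.448, 0.325, 0.549 and 0.639 CPM in saline, and 5.91, 0.687, 3.57 and 2.76 CPM in DT livers (2.72 ± 0.53, adjusted p = 0.00822). Even DT liver 2 was above every saline liver, by a small margin. Cdc20, its activator, was at 0.256 to 1.10 CPM in saline and at 10.5, 0.999, 4.97 and 4.06 CPM in DT livers (2.94 ± 0.74, adjusted p = 0.0186). Elovl1, annotated on the opposite strand over a Cdc20 exon, rose by 0.48 (adjusted p = 0.0456), and the strand setting of the counting is not given in the sources used here.

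**Figure D4:**
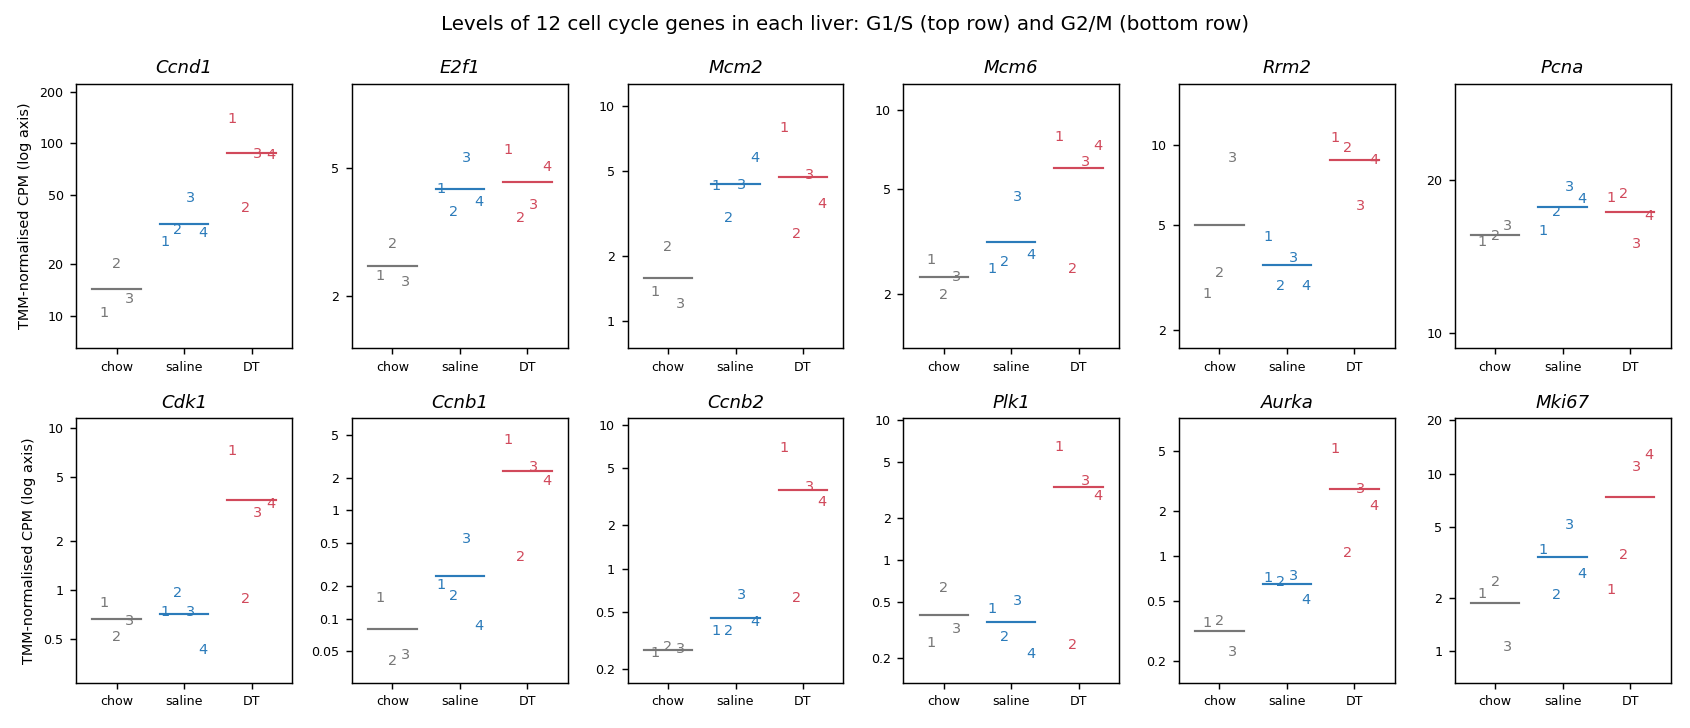
TMM-normalised CPM (log axis, scaled per gene) of 12 members in each liver; digits are the liver within its group and lines the group means. In the G2/M row DT livers 1, 3 and 4 lie above the saline livers, except Mki67 in DT liver 1 (2.21 CPM). In the G1/S row these DT livers also lie above the saline livers for Ccnd1, Mcm6 and Rrm2, and they overlap them for E2f1, Mcm2 and Pcna.

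Spindle and kinetochore members were split, with 3 of 6 called. Kif20a, a kinesin of the final separation of daughter cells, was at 1.00, 0.778 and 0.784 CPM in chow, 1.49, 1.06, 1.66 and 0.980 CPM in saline, and 15.4, 1.29, 6.38 and 5.90 CPM in DT livers (2.48 ± 0.55, adjusted p = 0.0121). Tpx2, an activator of Aurora A on spindles, was at 0.206, 0.491 and 0.277 CPM in chow, 1.10, 0.488, 0.988 and 0.596 CPM in saline, and 6.36, 0.957, 4.41 and 3.14 CPM in DT livers (2.23 ± 0.51, adjusted p = 0.0135). For both genes DT liver 2 was inside the saline range and the other 3 above it. Cenpf, a kinetochore protein, rose by 1.67 ± 0.54 (adjusted p = 0.0453) and was called in 2 of 11 refits. Kif11, the motor that separates spindle poles, was at 0.412, 0.696 and 0.692 CPM in chow, 1.18, 1.16, 1.54 and 0.639 CPM in saline, and 1.66, 0.999, 1.98 and 2.68 CPM in DT livers (0.70 ± 0.36, adjusted p = 0.176). Nusap1 (1.69 ± 0.60, adjusted p = 0.0609) and Cenpe (1.17 ± 0.89, adjusted p = 0.362) were not called either.

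The common proliferation markers were not called between DT and saline livers. Mki67, which encodes the Ki-67 antigen that coats mitotic chromosomes, was at 2.09, 2.46 and 1.06 CPM in chow, 3.71, 2.07, 5.16 and 2.70 CPM in saline, and 2.21, 3.50, 10.9 and 12.8 CPM in DT livers (1.11 ± 0.52, adjusted p = 0.142). Only DT livers 3 and 4 exceeded the saline livers. Top2a, the topoisomerase that untangles replicated chromosomes, was at 1.34, 0.614 and 0.600 CPM in chow, 1.96, 1.26, 2.27 and 2.09 CPM in saline, and 4.16, 1.58, 4.33 and 5.47 CPM in DT livers (1.04 ± 0.38, adjusted p = 0.0710).

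DT liver 1 had the highest level of Cdk1, Plk1 and Kif20a of any liver and at the same time low levels of Mki67, Cenpf and Cenpe. Cenpe was at 0.149 CPM there against 2.03 and 1.72 CPM in DT livers 3 and 4, and Cenpf at 0.537 against 2.57 and 3.08 CPM. The GC content of their transcripts was 42.9% for Cenpe, 43.3% for Cenpf and 46.6% for Mki67, and they were picked for their low values. Other members of low GC content differed less between DT liver 1 and DT livers 3 and 4: the log2 ratio was -0.497 for Bub1 (41.0%), -0.053 for Nusap1 (41.8%) and -0.233 for Top2a (43.4%), beside -3.275 for Cenpe. The transcripts of Cenpe, Cenpf and Mki67, at 7910, 11130 and 10061 bases, were also longer than those of all other members. Ccnd2, the next longest at 6330 bases, had a ratio of -0.078. The shorter Ccne2 and Ccne1, at 3006 and 2000 bases, had ratios of -2.258 and -1.257. The part of transcript length in these values was not tested. Over all genes, the median log2 ratio of DT liver 1 to DT livers 3 and 4 was -0.53 below 45% GC, 0.02 from 45 to 50%, 0.16 from 50 to 55% and 0.08 above 55%. Across the 46 members that ratio had a Pearson correlation with GC content of 0.50 and a Spearman correlation of 0.45, a description over genes that share the same libraries. With a correction for GC content 18 G2/M and 5 G1/S members were called between DT and saline livers, beside 3643 of all 17038 genes.

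**Figure D5:**
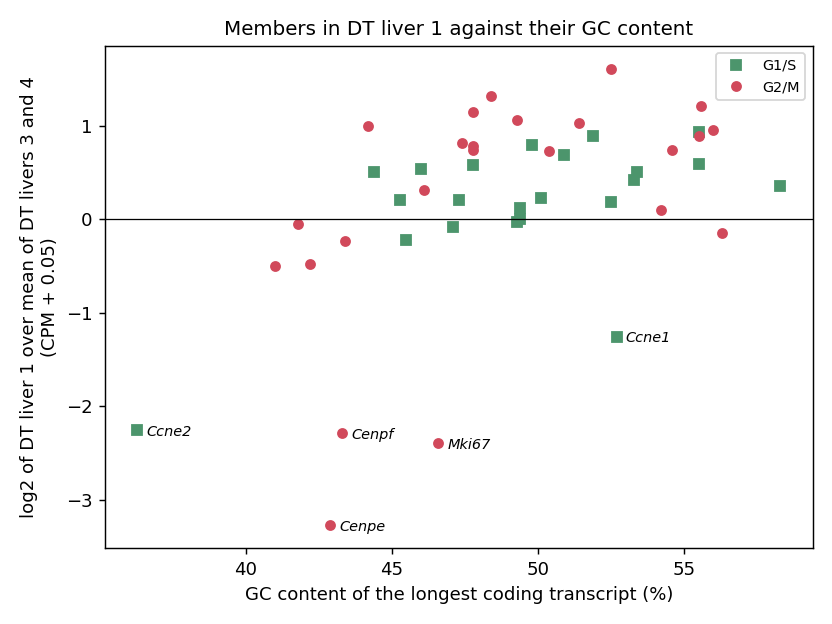
Log2 ratio of CPM in DT liver 1 to the mean of DT livers 3 and 4 against the GC content of each member's longest coding transcript; squares are G1/S and circles G2/M members. The 5 named genes lie below -1: Cenpe, Mki67, Cenpf and Ccne2 at GC contents of 36.3 to 46.6%, and Ccne1 at 52.7%.

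Of the 6 cyclins and kinases of G1, 1 rose in DT over saline livers. It was Ccnd1, the cyclin that couples growth signals to the cycle, which was at 10.4, 19.9 and 12.5 CPM in chow, 26.6, 31.4, 48.3 and 30.3 CPM in saline, and 139, 42.1, 86.8 and 85.5 CPM in DT livers. It rose in DT over saline livers by 1.37 ± 0.33 (adjusted p = 0.0157), but was no longer called without saline liver 2 (adjusted p = 0.0502) or without saline liver 4. LTO1, on the opposite strand over a Ccnd1 exon, had a log2 fold change of 0.04. Ccnd2, a second D-type cyclin, was at 7.52, 6.22 and 5.03 CPM in chow, 8.74, 12.1, 14.7 and 12.6 CPM in saline, and 19.5, 9.49, 19.7 and 21.4 CPM in DT livers (0.54 ± 0.25, adjusted p = 0.131). Cdk4, their kinase, was at 30.7, 33.4 and 32.3 CPM in chow, 26.9, 27.6, 28.4 and 29.8 CPM in saline, and 37.4, 30.2, 29.1 and 26.6 CPM in DT livers, and was not called (0.13 ± 0.11, adjusted p = 0.408).

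The E-type cyclins, which drive S-phase entry with CDK2, were not called. Ccne1 was at 0.361, 0.737 and 0.369 CPM in chow, 0.367, 0.610, 1.17 and 0.341 CPM in saline, and 0.418, 0.749, 1.12 and 1.02 CPM in DT livers (0.40 ± 0.47, adjusted p = 0.554). Ccne2 was at 0.721, 0.941 and 1.34 CPM in chow, 0.734, 1.5, 1.72 and 1.15 CPM in saline, and 0.149, 0.853, 0.918 and 0.888 CPM in DT livers (-0.86 ± 0.49, adjusted p = 0.217). Cdk2 had a log2 fold change of 0.12. At 36.3%, the Ccne2 transcript had the lowest GC content of all members.

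E2f8, the repressor E2F described above, was the member that fell most. It was at 5.23, 5.22 and 4.68 CPM in chow, 2.26, 2.83, 2.93 and 9.11 CPM in saline, and 1.67, 0.707, 1.36 and 1.48 CPM in DT livers, where all 4 were below every other liver. It fell by 1.70 ± 0.43 on the log2 scale (adjusted p = 0.0187), but was no longer called without DT liver 3 (adjusted p = 0.0532) or DT liver 4 (0.0502). Gm2788, on the opposite strand over an E2f8 exon, was at 8.56, 12.1, 12.2 and 25.6 CPM in saline and 1.11, 9.22, 1.48 and 1.27 CPM in DT livers (-2.18, adjusted p = 0.0342). Reads of the pair cannot be told apart without the strand setting. E2f1, an activating E2F, was at 2.32, 2.91 and 2.22 CPM in chow, 4.30, 3.64, 5.38 and 3.92 CPM in saline, and 5.69, 3.50, 3.84 and 5.01 CPM in DT livers (0.07 ± 0.21, adjusted p = 0.840).

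None of the 9 origin licensing and helicase members was called between DT and saline livers; 1 had an unadjusted p below 0.05, and their median log2 fold change was 0.18. That 1 was Mcm6, a subunit of the replicative helicase, at 2.68, 1.99 and 2.31 CPM in chow, 2.49, 2.64, 4.68 and 2.81 CPM in saline, and 7.88, 2.48, 6.37 and 7.30 CPM in DT livers (0.93 ± 0.33, adjusted p = 0.0652). Mcm2, another subunit, was at 1.36, 2.21 and 1.2 CPM in chow, 4.24, 3.01, 4.28 and 5.71 CPM in saline, and 7.91, 2.54, 4.74 and 3.49 CPM in DT livers (0.12 ± 0.34, adjusted p = 0.827). Mcm5 was at 0.979, 0.573 and 0.831 CPM in chow, 1.71, 1.38, 1.94 and 1.79 CPM in saline, and 4.43, 1.17, 2.46 and 2.29 CPM in DT livers (0.60 ± 0.35, adjusted p = 0.233). Mcm3 was at 3.50, 3.19 and 2.79 CPM in chow, 4.99, 4.23, 5.23 and 4.51 CPM in saline, and 6.27, 4.20, 5.89 and 5.12 CPM in DT livers (0.18 ± 0.17, adjusted p = 0.461). For Mcm2, Mcm3 and Mcm5 both groups on the alcohol diet were above all chow livers. The log2 fold changes of Mcm4, Mcm7 and Cdc45, which act at the same helicase, were -0.05, 0.38 and 0.11. Cdc6, which loads the helicase, had 1.27 (adjusted p = 0.169) and Gmnn, which blocks loading, -0.43.

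Among the 5 genes of DNA synthesis and nucleotide supply, 1 rose and 1 fell. Rrm2, the regulated subunit of ribonucleotide reductase, was at 2.73, 3.27 and 9 CPM in chow, 4.48, 2.93, 3.75 and 2.94 CPM in saline, and 10.7, 9.82, 5.92 and 8.77 CPM in DT livers (1.32 ± 0.35, adjusted p = 0.0222). All DT livers, number 2 included, were above all saline livers, while chow liver 3 was as high as the DT livers. Tk1, thymidine kinase, was at 14.2, 14.7 and 19.3 CPM in chow, 12.2, 17.0, 11.9 and 19.8 CPM in saline, and 12, 9.41, 7.07 and 8.83 CPM in DT livers. It fell by 0.71 ± 0.21 (adjusted p = 0.0316) and was called in 7 of 11 refits, and lost the call with scaling by total counts, with the compared groups alone and with the replicate block. Afmid, on the opposite strand over a Tk1 exon and at a mean of 44.5 CPM, fell by 0.73 (adjusted p = 0.0165). Pcna, the sliding clamp, was at 15.1, 15.5 and 16.2 CPM in chow, 15.9, 17.3, 19.3 and 18.3 CPM in saline, and 18.4, 18.7, 14.9 and 17.0 CPM in DT livers (-0.04 ± 0.10, adjusted p = 0.827). Rrm1, the other reductase subunit, was at 5.30, 6.67 and 6.55 CPM in chow, 9.13, 10.9, 10.3 and 8.90 CPM in saline, and 13.3, 6.12, 9.18 and 9.46 CPM in DT livers (-0.04 ± 0.20, adjusted p = 0.894). Tyms, thymidylate synthase, had a log2 fold change of -0.02.

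The diet with alcohol, with Kupffer cells in place, was compared by saline against chow livers. The saline group also had repeated injections, which the chow labels do not name, so diet and injections cannot be told apart. No member was called, against 5.58% of all genes tested (2.45% higher and 3.13% lower). Unadjusted p-values were below 0.05 for 10 members, limma-voom called 0 and DESeq2 called 7, all G1/S members and all higher in saline livers. Of all 17038 genes limma-voom called 713 and DESeq2 1831. Log2 fold changes were positive for 35 of 46 members, with a median of 0.38 in G1/S and 0.80 in G2/M, beside 0.00 over all genes. In G1/S 9 members were higher in saline livers with no overlap and 1 (Cdk4) lower, and in G2/M 3 and 0, against 14.8% and 15.6% of all genes. The 9 were Ccnd1, Ccnd2, E2f1, Gmnn, Mcm2, Mcm3, Mcm5, Rrm1 and Tyms.

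The smallest adjusted p-values for saline against chow were those of Mcm2 (1.43 ± 0.39, adjusted p = 0.0573), Ccnd2 (0.95 ± 0.27, 0.0681), Ccnd1 (1.26 ± 0.36, 0.0684) and E2f1 (0.80 ± 0.23, 0.0685). With only the 7 livers of these groups in the fit, 8 of 22 G1/S members and 1 of 20 G2/M members tested were called, all higher in saline livers. In that fit 3105 of 15435 genes were called, 1660 of them higher. Without DT liver 2, 8 members and 1924 of all genes were called, and without DT liver 1, 4 members. The DT livers also enter the shared filter, scaling and estimate of the spread, and the cause of these changes was not tested. Correction for GC content gave 3 calls, beside 905 of all 17038 genes.

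DT against chow livers differs from DT against saline livers only in its control group, and the DT livers enter both. Here 28 members were called, against 23.0% of all genes: 26 rose and 2 fell, against 14.8% and 8.16%. In G2/M 19 of 24 rose and none fell, with a median log2 fold change of 2.79. In G1/S 7 of 22 rose and 2 fell, with a median of 0.60, beside -0.02 over all genes. With no overlap, 14 G2/M and 8 G1/S members were higher and 2 G1/S members lower, against 14.8% and 14.4%.

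The largest rise by level was in Ccnd1, by 2.63 ± 0.39 (adjusted p = 0.00322), from a mean of 14.3 ± 5 CPM (SD, n = 3) to 88.3 ± 39.7 CPM (SD, n = 4). The other 6 G1/S members that rose were Ccnd2 (1.49), E2f1 (0.86), Mcm2 (1.55), Mcm3 (0.76), Mcm5 (1.71) and Mcm6 (1.37). E2f8 fell by 1.94 ± 0.45 (adjusted p = 0.0128) and Tk1 fell by 0.79 ± 0.22 (adjusted p = 0.0256), and their opposite-strand partners fell too, Gm2788 by 2.6 and Afmid by 1.04. Mki67 (1.98 ± 0.60, adjusted p = 0.0353), Top2a (2.20 ± 0.45, adjusted p = 0.00775), Kif11, Nusap1 and Aurkb rose over chow though not called over saline (Mki67 was called over chow in 5 of 11 refits and Aurkb in 1), whereas Birc5, Cdc25b and Rrm2 were called over saline only. The 5 G2/M members not called over chow were Cdc25b, Mybl2, Bub1, Birc5 and Cenpe.

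These counts too rested on single livers. Without chow liver 1, 2 or 3, the members called fell from 28 to 18, 16 and 13, and without DT liver 2 there were 34. Calls over all genes ran from 1786, without chow liver 1, to 6834, without DT liver 2. G1/S calls were 5, 5 and 4 without chow livers 1, 2 and 3, and G2/M calls were 11 and 9 without chow livers 2 and 3. Of the 28 calls, 12 held in every refit in which the gene was tested. Under limma-voom 14 members were called, 6 of them in G2/M, beside 2786 of all 17038 genes.

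The phase pattern was also seen in genes outside the 46, in the same livers and from lists chosen with earlier results of these data known. Of 30 other G2/M genes, 12 (40%) rose in DT over saline livers, against 14.3% of all genes, and none fell, with all 30 positive and a median of 1.30. Those with the smallest p were Gtse1 (1.63 ± 0.38, adjusted p = 0.0135), Prc1 (2.59 ± 0.60, adjusted p = 0.0139), which bundles the central spindle, Cdca3 (1.93 ± 0.45, adjusted p = 0.0146) and Ckap2 (2.27 ± 0.55, adjusted p = 0.0168). Of 26 other G1/S genes tested (of 27), none was called by edgeR, 4 had an unadjusted p below 0.05, and the median was 0.31. Among the 4 were Uhrf1 (1.66) and Gins2 (0.89). Over chow, 16 of the 30 (53.3%) and 8 of the 26 (30.8%) rose, against 14.8% of all genes, with Uhrf1 at 3.19 and Gins2 at 1.57 among the 8. A CHR was present in 75% of the other G2/M promoters and 11.1% of the other G1/S promoters.

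Of 24 genes that restrain the cycle, 6 rose and 2 fell in DT over saline livers, which is 25% and 8.33% beside 14.3% and 7.62% of all genes tested. Cdkn1a, which encodes the CDK inhibitor p21, was at 21.9, 31.3 and 86.7 CPM in chow, 1.77, 2.01, 9.75 and 1.68 CPM in saline, and 44.1, 22.0, 59.8 and 144 CPM in DT livers. It rose by 4.14 ± 0.79 (adjusted p = 0.00813) over saline and fell by 3.61 ± 0.80 (adjusted p = 0.0248) from chow to saline livers, the latter in 6 of 11 refits. DT liver 2 was above all saline livers here. Gadd45b, a stress-induced gene, was at 6.28, 7.76 and 8.88 CPM in chow, 2.22, 1.08, 1.72 and 1.51 CPM in saline, and 12.2, 1.91, 8.29 and 7.34 CPM in DT livers (2.19 ± 0.44, adjusted p = 0.00900).

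Wee1, the kinase that holds CDK1 inactive, went the other way. It was at 1.52, 1.86 and 3.69 CPM in chow, 10.5, 14.0, 16.8 and 19.4 CPM in saline, and 5.67, 4.29, 4.86 and 4.11 CPM in DT livers, with no overlap between any groups. It rose by 2.68 ± 0.32 from chow to saline livers (adjusted p = 0.00125) and fell by 1.68 ± 0.27 in DT against saline livers (adjusted p = 0.00563), and both calls held in all 11 refits. Rbl2, the pocket protein p130 of the DREAM complex, was at 51.8 to 58.4 CPM in chow, 45.1 to 52.5 CPM in saline and 34.8 to 39.6 CPM in DT livers, and fell by 0.46 ± 0.09 against saline (adjusted p = 0.00820). That call ended under scaling by total counts. Cdkn1b and Rb1, which encode p27 and the retinoblastoma protein, were at 17.3 to 28.0 and 4.27 to 11.5 CPM over all livers and were not called in any of the 3 comparisons.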

How the data were processed

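RNA-seq counts per gene for 11 samples labelled as whole liver were used as deposited. The authors made these raw counts with FastQC, STAR and featureCounts on GRCm39, per the submitters' processing notes; versions, strand setting and the handling of read pairs are not given in the sources used here. Of counts from 1 to 20, 76.58 to 81.51% per liver were even, so each pair may count 2 times, and intervals from counts would be too narrow; halved counts were run as an alternative.

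Genes were kept with filterByExpr, scaled by TMM, and fitted with 1 mean per group over all 11 livers by edgeR 4.0.16 (R 4.3.3; quasi-likelihood test, robust, 8 residual degrees of freedom, Benjamini-Hochberg adjustment over 17038 genes, threshold 0.05). The test was tested on simulated data. Alternatives were DESeq2 1.42.0, limma-voom (limma 3.58.1), other scalings and filters (no filter, or at least 1 CPM in 3 livers), the compared groups alone, a replicate block, and each liver left out. A correction for GC content was added after seeing the data. CPM are TMM-scaled; log2 CPM use a prior count of 2 and the heat map a pseudocount of 0.05 CPM. GC content, opposite-strand overlap (17 of 46 members) and promoters come from GRCm38 annotation.

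The members and lists were chosen with earlier results of these data known. Genes named beyond the members were the 4 of each pathway list with the smallest p for DT against saline livers, and Cdkn1a, Cdkn1b, Rb1 and Myc; Ccnd3 was added after its values were seen. Some genes that this rule names are not reported here. No pairing of livers by replicate number was seen. The correlation of deviations ran from -0.267 to 0.195 over 10 same-number pairs and from -0.293 to 0.294 over different-number pairs. These values cannot exclude a pairing.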

Additional observations from a re-analysis of the deposited data

Results flagged for a closer look

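Within groups of 4 livers, 96 sets of values (members in each group, and the scores) were searched for a liver far from the other 3 by Dixon's test, and 6 were found. Chance gives about 1 in 20. E2f8 was at 9.11 CPM in saline liver 4 and at 2.26 to 2.93 CPM in the other saline livers. Mcm6 was at 4.68 CPM in saline liver 3 and at 2.49 to 2.81 CPM in the others. Ccnd2 was at 9.49 CPM in DT liver 2 and at 19.5 to 21.4 CPM in the other DT livers. Nusap1 was at 0.25 CPM in DT liver 2 and at 1.8 to 2.1 CPM in the others. Ccne2 was at 0.149 CPM in DT liver 1 and at 0.853 to 0.918 CPM in the others. The G2/M score was 0.72 in DT liver 2 and 2.7 to 2.96 in the other DT livers.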

How the results depend on the processing

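The 3 comparisons are written here as saline-chow, DT-saline and DT-chow; values are log2 fold changes unless called counts. Of 3986 single-gene values over 64 genes, 3580 kept direction and side of the threshold, 220 lost a call, 116 gained one and 70 changed sign, 69 of these in genes called in neither fit. The cause of each change was not tested. Scaling by total counts moved the median of all genes to 0.127, 0.357 and 0.444; G1/S calls were 7 (DT-saline, median 0.462) and 18 (DT-chow, median 1.075), all-gene calls 5629 and 6536, and the G2/M median over saline 2.431. DESeq2 called 7 members, 7 in G1/S, and 1831 genes (saline-chow). limma-voom called 10 G2/M members (DT-saline), and 14 members, 6 in G2/M (DT-chow). Without a filter 1 member, in G1/S, was called (saline-chow), and with GC correction 3, all in G1/S. With the compared groups alone 9 members (8 G1/S, 1 G2/M) and 3105 genes were called (saline-chow), 2303 genes (DT-saline), and 16 members (3 G1/S) and 2089 genes (DT-chow).

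With the replicate number as a block, 559 genes were called (saline-chow), and 17 members, 5 in G1/S and 12 in G2/M, and 2210 genes (DT-chow). No pairing of livers by number was seen.

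Leaving out each liver gave, in the order DT-chow, DT-saline, saline-chow, 1786 to 6834, 1786 to 6824 and 287 to 1924 genes; 13 to 34, 12 to 30 and 0 to 8 members; 4 to 12, 1 to 8 and 0 to 7 in G1/S; 9 to 22, 11 to 22 and 0 to 1 in G2/M; G1/S medians 0.43 to 0.678, 0.068 to 0.166 and 0.231 to 0.535; G2/M medians 2.455 to 3.099, 1.696 to 2.373 and 0.657 to 0.941.

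Signs changed as follows. Cdkn1b (saline-chow) was 0.02 with RLE factors and DESeq2, 0.01 with no filter and with the compared groups alone. With total counts, saline-chow gave Cdk2 0.10, Tk1 0.04 and Cdkn1b 0.12, DT-saline gave Mcm4 0.32, Pcna 0.29, Rrm1 0.32 and Tyms 0.32, and DT-chow gave Cdk4 0.40 (called, adjusted p = 0.0367), Gmnn 0.34, Gadd45b 0.49 and Rb1 0.16. Cdc25a (saline-chow) was -0.05 with limma-voom, Tyms (DT-saline) 0.01 with the 1 CPM filter, and Cenpe (saline-chow) -0.17 with the block. GC correction gave Ccnh -0.04 and Rb1 -0.01 (saline-chow), and Cdk4 -0.04, E2f1 -0.26, Mcm2 -0.10, Mcm4 0.08, Pcna 0.11, Rrm1 0.15 and Tyms 0.03 (DT-saline). Leaving out livers gave, for saline-chow, Ccne1 -0.13 to 0.77, Ccnh -0.01 to 0.17, Cdc25a -0.21 to 0.27, Cdc25c -0.14 to 3.82, Cdk1 -0.06 to 0.30, Cdk2 -0.10 to 0.08, Cdkn1b -0.08 to 0.06, Cenpe -0.29 to 1.06, Plk1 -0.39 to 0.33, Rb1 -0.01 to 0.24, Rrm2 -0.80 to 0.23 and Tk1 -0.23 to 0.07. For DT-saline it gave E2f1 -0.05 to 0.18, Mcm2 -0.25 to 0.32, Mcm4 -0.17 to 0.11, Pcna -0.08 to 0.04, Rrm1 -0.24 to 0.12 and Tyms -0.16 to 0.09. For DT-chow it gave Cdk4 -0.16 to 0.03, Cdkn1a -0.12 to 1.34, Gadd45b -0.37 to 0.28 and Gmnn -0.37 to 0.07. Depth limits Cdc25c, at 0 to 4 counts in chow and saline livers.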

Other observations

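Among 9 other cyclins, kinases and related genes, Myc, a driver of growth and cycle entry, was at 10.6, 9.11 and 8.91 CPM in chow, 5.09, 2.16, 4.15 and 3.13 CPM in saline, and 17.3, 4.31, 15.9 and 17.5 CPM in DT livers. It rose over saline by 1.92 on the log2 scale, and DT liver 2 was again within the saline range. Cdk6, a partner of D-type cyclins, was at 34.9 to 39.3 CPM in chow, 57.7 to 67.9 CPM in saline and 36.9 to 48.6 CPM in DT livers. It rose by 0.72 from chow to saline livers and fell by 0.54 in DT against saline livers, with no overlap for either; the fall lost its call under scaling by total counts. Ccnd3, the third D-type cyclin, was at 50.9 to 58.3 CPM in chow, 24.9 to 40.9 CPM in saline and 28.6 to 34.6 CPM in DT livers, and fell by 0.81 from chow to saline livers. Ccnd3 was chosen after its values were seen. Ccnh, which belongs to the kinase that activates CDKs, fell by 0.55 in DT against saline livers, a change called in 3 of 11 refits and lost in 5 of 10 other settings (total counts, no filter, compared groups alone, replicate block and GC correction). Cdc25a, a phosphatase of S-phase entry, had a log2 fold change of 0.72 that did not pass the test (adjusted p = 0.135).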
